A study of Sus scrofa with 22 samples.

Results

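AP-1 is a dimeric transcription factor built from FOS and JUN proteins, and the transcripts of its subunits were followed here across pig fetuses and day 6 embryos from a study of somatic cell nuclear transfer. The 7 genes FOSL1, FOSL2, FOS, FOSB, JUN, JUNB and JUND were looked up among 14389 genes that had at least 1 RefSeq transcript record matched by accession without its version. Of these 7, 4 had a matched record: FOSL1 (chromosome 2, 6430158 to 6436173), FOS (chromosome 7, 98449508 to 98451971), JUN (chromosome 6, 153686425 to 153687635) and JUNB (chromosome 2, 66214086 to 66219435), all on build Sscrofa11.1. Each rested on 1 record. FOSL2, FOSB and JUND are not analysed here. The family was selected on measured values, namely the higher FOSL1 count in abnormal than in normal fetuses at day 30, so comparisons with abnormal libraries are given below as description, and thresholds passed there support nothing.

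Body tissue of fetuses was sequenced at day 30 and day 35, in 14 libraries. At each day there were 2 libraries labelled abnormal, 3 labelled normal and 2 labelled naturally fertilized (NF). The abnormal and normal fetuses are read as clones from the title of the series, since their own labels give neither the cloning nor the donor cells. All fetus libraries are labelled male, apart from day 30 NF replicate 2, which is labelled female. Blastocysts grown in vitro to day 6 gave 8 further libraries, 2 in each of the groups WT, XIST-KO, WT+Kdm4A and IVF. The first 3 embryo groups are labelled male and IVF pooled male and female. The labels do not spell out these names further, nor do they say whether replicates came from different animals or cultures; where they did not, a p-value reflects only the spread of these samples, which may be technical.

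FOS and JUN proteins carry a basic leucine zipper, through which they pair and bind DNA. JUN proteins can pair with each other, whereas FOS proteins need a JUN partner. FOS, JUN and JUNB are immediate early genes, transcribed within minutes of a growth factor or stress signal through MAP kinases, and FOSL1, which encodes FRA-1, follows later and is itself an AP-1 target. In mice, loss of Fosl1 or Junb is known to damage the extraembryonic tissues, and loss of Jun the fetal liver.

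Library totals ran from 0.589 to 11.5 M (mega) expected counts in fetuses and from 6.45 to 20.4 M in embryos. Abnormal libraries held 0.589 to 4.28 M, normal libraries 5.68 to 9.36 M and NF libraries 8.97 to 11.5 M. Every abnormal library was thus shallower than every other fetus library, and depth cannot be told apart from the abnormal label. Day 35 abnormal replicate 2 was the shallowest, and the next fetus library held 3.46 M. Its Spearman correlation over genes was 0.789 with its own replicate and 0.908 with day 30 NF replicate 1. The Y-linked gene EIF1AY was at 0 CPM (counts scaled to a common library size) in both day 35 abnormal libraries and in day 30 NF replicate 1, all labelled male. In the library labelled female it was at 33.5 CPM, within the 20.5 to 52.9 CPM of the other fetus libraries. The labels of these libraries are kept as deposited, and values without them are given for the comparisons they changed most.

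FOSL1 had the widest gap of the 4 subunits between normal and other fetuses. In normal libraries it stood at 0, 0.304 and 0.185 CPM at day 30 and at 0.168, 0.197 and 0 CPM at day 35, which is 3 and 2 counts in all. In NF libraries it stood at 70.5 and 123 CPM at day 30 and at 120 and 263 CPM at day 35. No normal library came near any NF library at either day. From the summed counts, the NF level was 513 times the normal level at day 30 (95% exact interval 175 to 2490) and 1466 times at day 35 (405 to 12114). These intervals cover counting error only, and since the normal libraries are those against which FOSL1 was first noted, no p is given. In body tissue, fewer cells of a type and less RNA per cell cannot be told apart.

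In abnormal libraries FOSL1 lay between the others at day 30, with 15.7 and 13.3 CPM. At day 35 the 2 abnormal libraries parted, with 7.67 CPM in replicate 1 and 156 CPM in replicate 2. The higher value is inside the NF range and the lower one is the lowest of the abnormal libraries, yet every abnormal library was above every normal library. From the summed counts, the abnormal level was 77.9 times the normal level at day 30 (25.5 to 387, from 67 against 3 counts) and 202 times at day 35 (54.0 to 1694, from 78 against 2). Summing gives the deeper library more weight, which at day 35 was replicate 1. The fitted log2 fold change at day 35 was 8.71 ± 1.39 (SE) with all libraries, 5.67 without replicate 2 and 9.95 without replicate 1. These fitted values depend on the prior count, because the normal group has so few counts. Against NF the abnormal libraries were lower by a log2 fold change of -2.74 ± 0.92 at day 30, without overlap, and at day 35 the groups overlapped. The day 35 value against NF was -1.54 ± 0.92 with both abnormal libraries, -4.64 ± 0.62 without replicate 2 and -0.35 ± 0.49 without replicate 1. From day 30 to day 35 in abnormal libraries the value of 2.18 ± 1.01 became 3.36 without day 35 replicate 1 and, in the other direction, -0.93 without replicate 2.

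**Figure D1:**
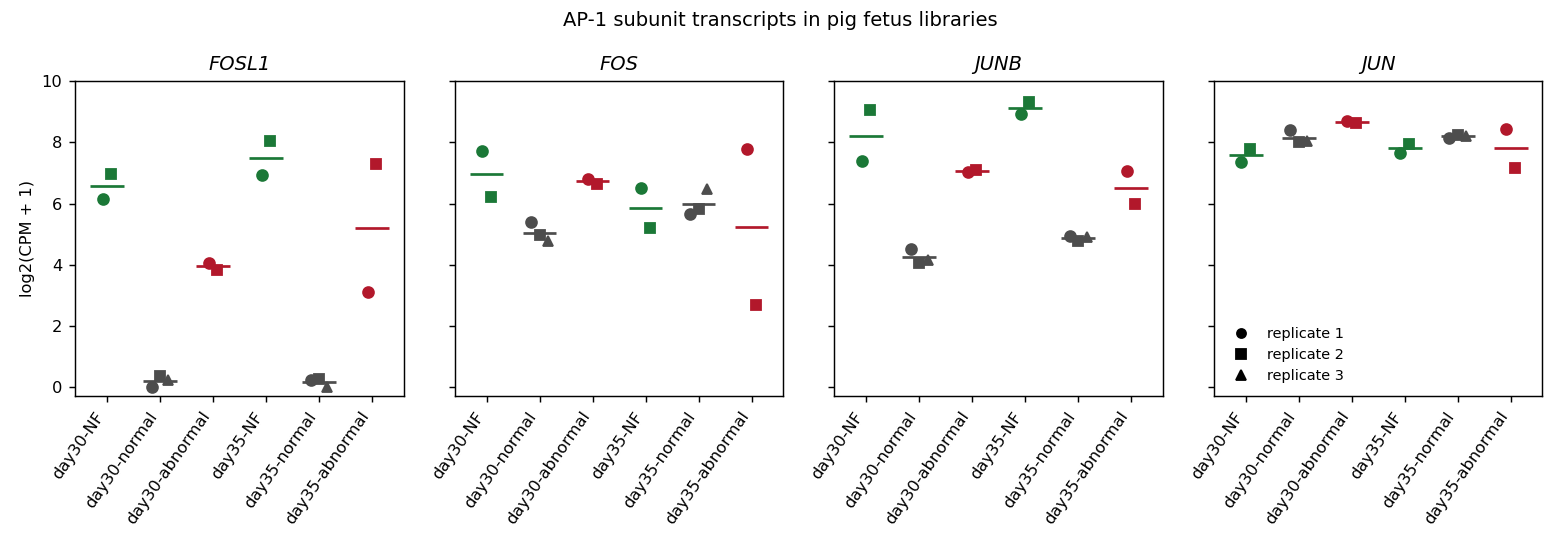
Levels of FOSL1, FOS, JUNB and JUN in the 14 fetus libraries, as log2(CPM + 1) on the vertical axis, by group and day on the horizontal axis; each point is a library, its shape gives the replicate, and the line is the mean of the group. FOSL1 was near 0 in all 6 normal libraries and JUNB was lowest in them, while JUN varied far less.

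FOS, the classic immediate early member, did not follow the same order. At day 30 it was at 41.0, 30.3 and 26.4 CPM in normal libraries, at 111 and 98.8 CPM in abnormal libraries and at 207 and 72.4 CPM in NF libraries. At day 35 normal libraries held 49.3, 55.5 and 88.1 CPM, NF libraries 90.3 and 35.6 CPM, and abnormal libraries 221 and 5.40 CPM. Normal libraries were thus lowest at day 30, and at day 35 both other groups lay on either side of them. The value of 5.40 CPM comes from 2 counts in the shallowest library, where 3 counts correspond to 8.09 CPM.

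For FOS at day 30, normal minus NF gave a log2 fold change of -2.11 ± 0.75, which did not pass the test (adjusted p = 0.0556). Without NF replicate 1, one of the libraries whose EIF1AY level went against its label, the value was -1.15 (adjusted p = 0.386). At day 35 the adjusted p was 0.981, with overlapping libraries. The change of the normal-to-NF difference between the days was 2.13 ± 1.08 on the log2 scale, and this interaction did not pass either (adjusted p = 0.410). From day 30 to day 35 in normal libraries the log2 fold change of FOS was 0.98 ± 0.69 without overlap (adjusted p = 0.399). The day 30 abnormal libraries were above the normal ones by 1.69 ± 0.76. At day 35 the direction depended on the abnormal library kept: abnormal minus normal was 0.99 ± 0.76 with both, 1.82 ± 0.54 without replicate 2 and -3.58 ± 1.49 without replicate 1. Against NF the corresponding values were 1.02 ± 0.85, 1.80 ± 0.60 and -3.60 ± 1.51.

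JUNB, a JUN protein that in some settings counteracts JUN, had the same order of groups as FOSL1 at day 30. Normal libraries held 21.9, 15.8 and 16.8 CPM, abnormal libraries 129 and 134 CPM, and NF libraries 167 and 527 CPM. At day 35 the values were 29.6, 26.5 and 29.2 CPM in normal libraries, 132 and 62.0 CPM in abnormal libraries and 486 and 640 CPM in NF libraries. No 2 of these groups overlapped at either day.

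JUNB was lower in normal than in NF fetuses at both days, by a log2 fold change of -4.26 ± 0.43 at day 30 (adjusted p = 0.000172) and of -4.31 ± 0.42 at day 35 (adjusted p = 8.22e-05). Without NF replicate 1 the day 30 value was -4.85, and without NF replicate 2 it was -3.20, both still past the threshold. The change of this difference between days was -0.05 ± 0.58 on the log2 scale (adjusted p = 0.992). In normal libraries JUNB was higher at day 35 than at day 30 by 0.65 ± 0.38, which did not pass the test (adjusted p = 0.305). The abnormal libraries exceeded the normal ones by 2.86 ± 0.42 at day 30 and 1.85 ± 0.42 at day 35. The latter was 2.26 without abnormal replicate 2 and 1.11 without replicate 1, where it no longer passed (edgeR adjusted p = 0.291). Against NF they were lower by -1.40 ± 0.44 at day 30 and -2.45 ± 0.47 at day 35. The day 30 value was -0.36 without NF replicate 2 and -1.99 without NF replicate 1. The day 35 value was -3.24 without abnormal replicate 1 and -2.10 without abnormal replicate 2.

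JUN, the partner that most AP-1 dimers contain, was the steadiest subunit. It stood at 337, 255 and 260 CPM in normal, 417 and 398 CPM in abnormal and 163 and 221 CPM in NF libraries at day 30. At day 35 it stood at 283, 298 and 296 CPM in normal, 345 and 143 CPM in abnormal and 201 and 246 CPM in NF libraries. NF libraries were thus below normal libraries at both days, opposite to FOSL1 and JUNB. Normal minus NF was 0.56 ± 0.29 at day 30 (adjusted p = 0.167) and 0.39 ± 0.29 at day 35 (adjusted p = 0.30), neither past the threshold. Leaving out either day 35 abnormal library, which enters the day 30 contrast only through the shared spread, brought the day 30 value past it (adjusted p = 0.0165 and 0.0166, in order of replicate). The same step did so for FOS (adjusted p = 0.00409 and 0.00406). In abnormal fetuses at day 30 JUN was above NF by 1.08 ± 0.32 and above normal by 0.52 ± 0.28. From day 30 to day 35 in abnormal libraries it was lower without overlap, with a log2 fold change of -0.70 ± 0.32, which was -1.59 ± 0.28 without day 35 replicate 1 and -0.26 ± 0.22 without day 35 replicate 2. At day 35 abnormal minus normal was -0.22 ± 0.29 for JUN, and it was -1.05 ± 0.26 without abnormal replicate 1 and 0.28 ± 0.20 without replicate 2.

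**Figure D2:**
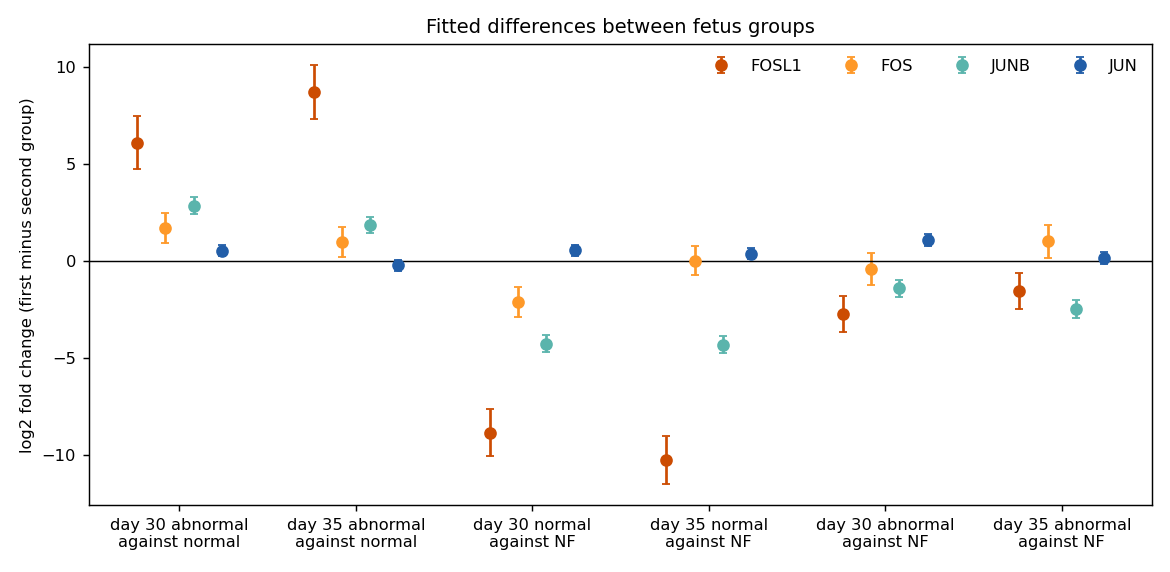
Fitted log2 fold changes (vertical axis, first group minus second) of the 4 subunits in 6 fetus comparisons (horizontal axis); bars are standard errors. JUNB was -4.26 and -4.31 in normal against NF, JUN ran from -0.22 to 1.08 over the 6 comparisons, and the FOSL1 values that involve normal fetuses depend on the prior count.

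Counts of members past the threshold are set beside the share of all genes tested (9911 in fetuses) that passed. In normal against NF, JUNB was lower at each day and FOS and JUN did not pass, where 15.3% of genes were lower at day 30 and 20.1% at day 35, and 29.3% and 42.3% passed in both directions together. FOSL1 is left out of this count, since the normal libraries entered its choice and it passed the filter on low counts through the other groups. In normal fetuses 0 of 4 members differed between the days (9.19% of genes), and likewise 0 of 4 at an unadjusted p under 0.05, beside 2618 genes. In NF fetuses 0 of 4 differed (0.00% of genes), with 351 genes but no member at an unadjusted p under 0.05, and the libraries of the 2 days overlapped for all 4 subunits. DESeq2 called 0 members in both day comparisons.

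In the comparisons that led to the choice of the family, the members past the threshold are given as description. FOSL1 and JUNB were higher in abnormal than in normal fetuses at day 30, where 15.4% of genes passed and 8.93% of genes were higher. The FOSL1 value no longer passed without either abnormal library or without normal replicate 2 or 3 (edgeR adjusted p = 0.0531 to 0.0606). A change of scale moved these splits: 58.0% of the genes that passed at day 30 were higher by edgeR and 27.7% by limma on log2(TPM + 1), where the median of all genes was -0.27, and at day 35 these shares were 47.2% and 17.3%, with a median of -0.32. The same 2 members passed at day 35, where 23.2% of genes passed and 10.9% were higher, and over both days together, where 31.0% passed. Against NF, FOSL1, JUNB and JUN passed at day 30 (30.0% of genes) and JUNB at day 35 (23.2%). The day 30 value of FOSL1 stayed past the threshold only without either day 35 abnormal library, among the 14 libraries left out in turn (edgeR adjusted p = 0.0527 to 0.180 for the others). That of JUN did not pass without any 1 of the 4 libraries compared (0.0625 to 0.141), nor did that of JUNB without either abnormal library or NF replicate 2 (0.144 to 0.483), or without day 30 normal replicate 2 or 3 or any day 35 normal library (0.0513 to 0.0544). The day 35 value of JUNB did not pass without NF replicate 2 (0.0503), and without abnormal replicate 2 all 4 members passed. Between abnormal libraries of the 2 days 0 of 4 members passed (3.51% of genes), and DESeq2 called 0. At an unadjusted p under 0.05 there were 0 members there, beside 2044 of 9911 genes. All comparisons of normal libraries share the same 3 libraries per day, so those with abnormal and with NF fetuses are not independent of each other.

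TPM, the abundance given by RSEM, is scaled by transcript length, which allows levels of different genes to be compared. Summed over the 4 subunits it ran from 261 to 928 TPM in fetus libraries. JUN made up 84.9% to 86.6% of this sum in day 30 normal libraries and 71.8% to 79.3% in day 35 normal libraries. In NF libraries its share was 29.8% to 30.0% and 27.7% to 28.4%. Abnormal libraries lay between, at 65.5% to 65.7% on day 30 and 49.3% to 50.7% on day 35. Among the 4 subunits measured, JUN thus held most of the TPM in normal libraries, and NF libraries were mixed. FOSL2, FOSB and JUND had no record, so the make-up of the whole family is not known.

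Between groups of the same day the share of JUNB was larger where that of JUN was smaller, though shares of 1 sum are tied to each other. The JUNB share was 3.65% to 3.82% in day 30 normal, 13.9% to 15.1% in day 30 abnormal and 21.0% to 48.8% in day 30 NF libraries. On day 35 the JUNB share was 4.80% to 5.64% in normal, 13.3% to 14.8% in abnormal and 47.1% to 49.4% in NF libraries. FOSL1 took at most 0.0634% in any normal library, against 8.07% to 10.4% in day 30 NF and 10.6% to 18.5% in day 35 NF libraries. In the abnormal libraries its share was 1.35% to 1.53% at day 30, and 0.701% and 33.9% in the 2 libraries of day 35. FOS varied most within groups, from 2.03% to 35.4% in day 35 abnormal and from 10.8% to 41.1% in day 30 NF libraries. The 2 day 35 abnormal libraries had like TPM shares of JUN and JUNB, whose CPM given above were more than 2-fold apart, and very unlike shares of FOS and FOSL1.

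**Figure D3:**
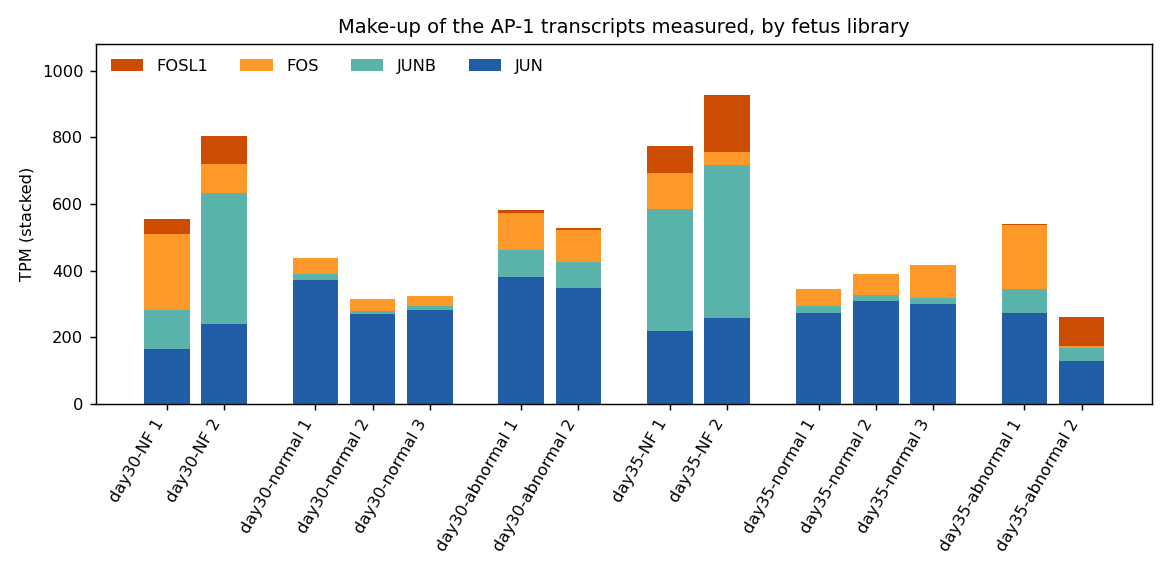
TPM of the 4 subunits stacked for each fetus library (vertical axis, from 0), with libraries on the horizontal axis by group and replicate. JUN (bottom of each bar) held most of the sum in normal libraries, and JUNB and FOSL1 held much more of it in NF libraries.

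Across the 14 fetus libraries, log2(CPM + 1) of FOSL1 and JUNB had a Pearson r of 0.89 (Spearman rho 0.78), the highest of the 6 pairs. FOSL1 and FOS had an r of -0.0017, FOSL1 and JUN of -0.53, FOS and JUN of 0.40, FOS and JUNB of 0.35, and JUN and JUNB of -0.22. The libraries share groups and depth, so these values describe the set and carry no p. The 5 genes with the pattern most like FOSL1, out of 9313 compared, were SLC19A2 (r = 0.978), a thiamine transporter, KLF6 (0.978), a zinc finger factor, MFSD14B (0.977), POLR3D (0.977), an RNA polymerase III subunit, and PTGS2 (0.976), the inducible prostaglandin synthase. PTGS2 was at 0.913 to 1.66 CPM in day 30 normal, 5.56 to 5.68 CPM in day 30 abnormal and 60.5 to 90.4 CPM in day 30 NF libraries. Like FOSL1, it parted the 2 day 35 abnormal libraries, at 14.6 and 119 CPM. For JUNB the closest were MAP3K8 (0.976), a kinase upstream of ERK, and PLIN2 (0.967), a lipid droplet protein. The closest to JUN were TLE4 (0.948), a corepressor, and KIAA1456 (0.938), and those closest to FOS, with lower values, were LOC106510467 (0.902) and ZNF239 (0.876).

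The genes around AP-1 were taken from lists that, like the members, were chosen with earlier results of these data known. Of 16 genes for bZIP proteins that pair with FOS or JUN or are related to them, 9 had a record and 7 were tested. In normal against NF, 5 of the 7 fell at day 30 and the same number at day 35, and 0 rose, with medians of -1.0 and -1.02 on the log2 scale against 0.00 and 0.06 over all genes. The share of all genes that were lower was 15.3% at day 30 and 20.1% at day 35. ATF3, a stress-induced bZIP factor, was at 8.47 ± 0.814 CPM in day 30 normal (n = 3) and 43.1 ± 18.8 CPM in day 30 NF libraries (n = 2), a log2 fold change of -2.35 ± 0.44 (edgeR adjusted p = 0.00325). In day 30 abnormal libraries ATF3 was far above both, at 300 ± 85.5 CPM (n = 2). At day 35 it was at 17.2 ± 2.54 CPM in normal (n = 3) and 55.2 ± 3.52 CPM in NF libraries (n = 2). Day 35 abnormal libraries held 141 ± 119 CPM (n = 2) and were far apart. MAFF, a small MAF protein, had the same order, with 10.4 ± 0.865 CPM in normal, 35.9 ± 0.365 CPM in NF and 137 ± 40.3 CPM in abnormal libraries at day 30. ATF4, the factor of the amino acid and unfolded protein response, was lower in normal than in NF by -1.60 ± 0.24 at day 30 and by -1.66 ± 0.24 at day 35. In abnormal against normal, 4 of 7 were higher at each day and 0 lower, with medians of 0.61 and 0.79 against -0.02 and 0.00 over all genes. The share of all genes that were higher was 8.93% at day 30 and 10.9% at day 35.

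Upstream signalling genes passed about as often as all genes, counting both directions together. Among 20 tested genes of MAP kinase modules, ternary complex factors and MAP kinase phosphatases (23 listed, 20 with a record), 3 fell and 1 rose in normal against NF at day 30, and 7 fell and 1 rose at day 35, beside 29.3% and 42.3% of all genes. The medians of the 20 were -0.08 and -0.20. Counting lower genes alone, the share of all genes was 15.3% at day 30 and 20.1% at day 35. DUSP5, a phosphatase that holds ERK inactive in the nucleus, was at 5.81 ± 1.05 CPM in day 30 normal (n = 3) against 39.4 ± 8.79 CPM in NF libraries (n = 2), a log2 fold change of -2.75 ± 0.24. In day 30 abnormal libraries DUSP5 was higher still, at 94.9 ± 9.08 CPM (n = 2). ELK4, a ternary complex factor that binds the FOS promoter with SRF, was lower in normal than in NF by -1.49 ± 0.40 at day 30 and -2.51 ± 0.41 at day 35. MAPK10, the JNK kinase of neurons, was the gene that rose in normal against NF, by 3.61 ± 0.87 at day 30, where it did not pass without NF replicate 2, and by 4.21 ± 0.90 at day 35. In abnormal against normal 3 were higher and 0 lower at day 30 (SRF and DUSP1 after DUSP5, by 1.44 ± 0.25 and 0.75 ± 0.21), and 4 higher and 1 lower at day 35, beside 15.4% and 23.2% of all genes. The 4 became 1 without any 1 of the normal libraries other than day 35 replicate 3. Of 7 genes for JUN turnover and cofactors only 3 were tested: MEN1, whose product menin binds JUND, was higher in normal than in NF at day 30 by 0.83 ± 0.26, and TRIB2, a pseudokinase, was lower in abnormal than in normal at day 30 by -0.87 ± 0.27. Both calls were lost on leaving out any 1 library of the groups compared, and none of the 3 passed at day 35.

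Immediate early genes outside the family differed in the same direction as JUNB. Of 20 listed, 15 had a record and 14 were tested. In normal against NF 10 fell at day 30 and 11 at day 35, with 0 higher and medians of -2.53 and -2.30. Beside these, 15.3% of all genes were lower at day 30 and 20.1% at day 35. EGR1, a zinc finger factor induced with FOS, was at 56.2 ± 28.8 CPM in day 30 normal (n = 3), 918 ± 55.5 CPM in day 30 abnormal (n = 2) and 705 ± 93.3 CPM in day 30 NF libraries (n = 2). Normal minus NF for EGR1 was -3.65 ± 0.80 (edgeR adjusted p = 0.00695). IER3, which is induced by growth factors and stress, was at 1.67 ± 0.0139 CPM in normal (n = 3), 35.7 ± 0.377 CPM in abnormal (n = 2) and 69.5 ± 35.4 CPM in NF libraries (n = 2) at day 30. MYC, the proliferation factor, was at 77.2 ± 7.31 CPM in normal against 590 ± 209 CPM in NF libraries at day 35. In abnormal against normal fetuses 8.93% of all genes were higher at day 30 and 10.9% at day 35. Of the 14 immediate early genes, 10 were higher at day 30 and 11 at day 35, with medians of 1.42 and 1.60. KLF2 of the endothelium was the 1 lower at day 35. Leaving out abnormal replicate 1 brought the day 35 count to 7 and leaving out abnormal replicate 2 to 10, while it was 5 and 7 without normal replicates 1 and 3. The day 30 count was 6 without abnormal replicate 2 or normal replicate 2.

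Genes that textbooks give as AP-1 targets had the largest medians of the 5 lists in normal against NF. Of 25 listed, 22 had a record and 20 were tested. In normal against NF 15.3% of all genes were lower at day 30 and 20.1% at day 35. Of the 20 target genes, 16 were lower in normal than in NF at each day, with medians of -4.71 and -3.62. None was higher at day 30, and VIM, the intermediate filament of mesenchyme, was higher at day 35, by 1.06 ± 0.34, a call lost without day 35 normal replicate 1 or 2 or either day 35 NF library. MMP1, the collagenase with the best known AP-1 site, had 1 count in the normal libraries of each day and stood at 85.0 ± 20.5 CPM in day 30 NF and 91.9 ± 17.8 CPM in day 35 NF libraries (n = 2 each). Its NF level was 1359 times the normal level at day 30 (95% exact interval 243 to 53735) and 1413 times at day 35 (253 to 55857). IL6, an inflammatory cytokine, had 0 counts in all 6 normal libraries, and against 3 counts over the group it was at least 46.1-fold higher in NF at day 30 and at least 70.5-fold higher at day 35.

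In abnormal against normal fetuses 6 of the 20 target genes were higher at day 30 and 11 at day 35, and 0 were lower, with medians of 1.84 (1.65 with IL6 at its bound) and 2.73. The share of all genes that were higher was 8.93% at day 30 and 10.9% at day 35. PLAUR, the urokinase receptor, was at 40.9 ± 14 CPM in abnormal (n = 2) and 3.02 ± 0.531 CPM in normal libraries (n = 3) at day 30. Keratin KRT18 was at 272 ± 31.0 CPM against 23.6 ± 6.87 CPM, and it is also one of the epithelial markers given below. The day 35 count was 8 without abnormal replicate 2, with 2 genes then lower, 14 without abnormal replicate 1 and 7 without normal replicate 1. At day 30 it was 2 without abnormal replicate 2 and 5 without replicate 1, and 10 without either day 35 abnormal library.

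The abnormal libraries were also set directly against NF, where 30.0% of all genes passed at day 30 and 23.2% at day 35, counting both directions. Of the target genes 10 were lower and 1, KRT18, higher in abnormal than in NF fetuses at day 30, with a median of -3.35, and 1 was lower and 2 were higher at day 35, with a median of -0.95. Without day 35 abnormal replicate 2 the day 35 counts were 13 lower and 1 higher, with a median of -2.22, and without replicate 1 they were 1 and 2, with a median of -0.38. CCL2, a chemokine that attracts monocytes, was at 1.53 ± 2.16 CPM in day 30 abnormal and 280 ± 285 CPM in day 30 NF libraries (n = 2 each), the latter with libraries far apart. Of the immediate early genes 4 were lower and 1 higher at day 30, with a median of -0.18: SGK1, a kinase induced by serum and glucocorticoid, was at 49.1 ± 3.88 CPM against 261 ± 17.5 CPM, while BTG2, an antiproliferative gene, was at 140 ± 7.05 CPM against 31.2 ± 9.88 CPM (n = 2 each). At day 35, 2 were lower and 1 higher. Of the 7 dimer partners 2 were higher and 2 lower than in NF at day 30: ATF3 and MAFF were above, by 2.80 ± 0.48 and 1.93 ± 0.23, and ATF4 was among those below, by -1.12 ± 0.27. At day 35, 1 was higher and 1 lower.

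Between day 30 and day 35 few of these genes passed in normal and NF fetuses, and in normal fetuses the share of all genes that passed was 9.19%. In normal fetuses 2 of 14 immediate early genes rose, KLF2 by 1.71 ± 0.32 and KLF4, a factor of epithelia and vessels, by 1.36 ± 0.30. Of 7 dimer partners 1, MAFF, rose by 0.85 ± 0.20. Of 20 target genes 2 rose, SPP1, the matrix protein osteopontin, by 3.26 ± 0.56 and TIMP1, an inhibitor of metalloproteinases, by 1.08 ± 0.21. In NF fetuses 0 genes of any of the 5 lists passed by edgeR, as was so for all genes. In abnormal fetuses 2 immediate early genes and 1 target gene were higher at day 35 and 1 dimer partner was lower, beside 3.51% of all genes. The median log2 fold change of the target genes there was 2.07. It was 3.02 without day 35 abnormal replicate 1 and 0.30 without replicate 2.

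**Figure D4:**
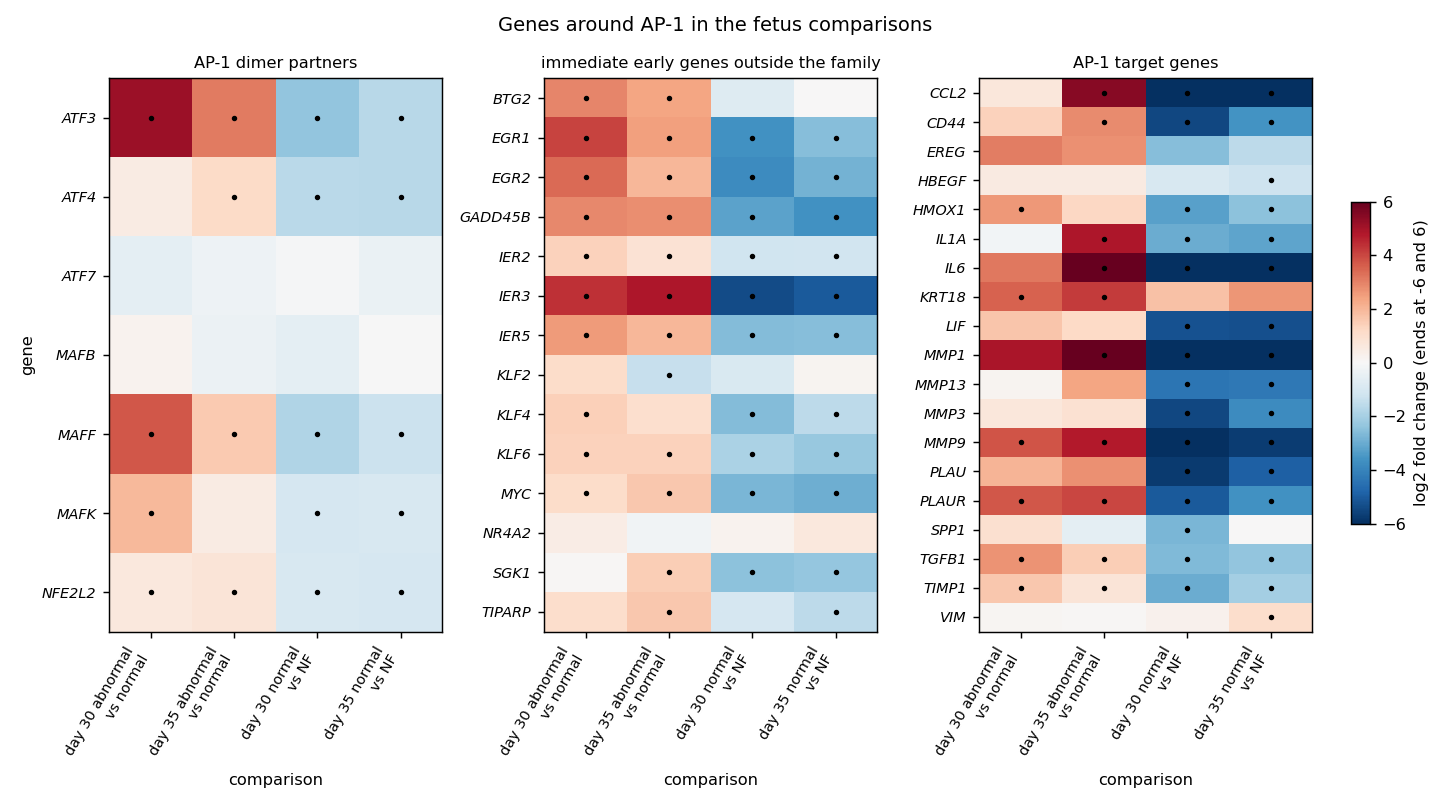
Fitted log2 fold changes of tested dimer partners, immediate early genes and AP-1 target genes (rows) in 4 fetus comparisons (columns); red is higher and blue lower in the first group, colours end at -6 and 6, and a dot marks an adjusted p under 0.05. Most dotted genes are red in abnormal against normal and blue in normal against NF; KRT18 and VIM at both days and SPP1 at day 35 (0.03) are above 0 among the plotted target genes in the latter, with VIM dotted at day 35.

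Marker genes of other cell types moved with these groups, and their part in the values of the AP-1 genes was not tested. Summed over 4 measured markers of fibroblasts and mesenchyme (6 listed), the level was 10315 to 12772 CPM in day 30 normal, 12049 to 13667 CPM in day 30 abnormal and 36144 to 39012 CPM in day 30 NF libraries. At day 35 the sums were 13628 to 23911 CPM in normal, 16075 to 24139 CPM in abnormal and 27530 to 31290 CPM in NF libraries. Of these 4 genes, 3 were lower in normal than in NF at day 30 and 1 at day 35. The 5 measured neural markers summed to 1902 to 2427 CPM in day 30 normal and to 510 to 854 CPM in day 30 NF libraries, with 4 of 5 higher in normal, and all 5 were lower in abnormal than in normal libraries at both days. Skeletal muscle markers were likewise higher in normal than in NF, 3 of 6 at day 30 and 4 of 6 at day 35, and erythroid markers 5 of 6 and 3 of 6. In abnormal against normal, 5 of 6 muscle markers were lower at day 30 and 6 of 6 at day 35, with 0 higher. The share of all genes that passed was 29.3% and 42.3% in normal against NF. In abnormal against normal it was 15.4% and 23.2%.

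The 5 measured epithelial markers summed to 2185 to 2848 CPM in day 30 abnormal, 251 to 298 CPM in day 30 normal and 302 to 379 CPM in day 30 NF libraries. At day 35 the sums were 240 and 6266 CPM in the 2 abnormal libraries, 342 to 646 CPM in normal and 251 to 499 CPM in NF libraries, so only 1 abnormal library was above the other groups. The keratin KRT5 ran the other way at day 30, at 5.24 and 1.28 CPM in abnormal and 14 to 35.6 CPM in normal libraries. Trophectoderm and placenta markers summed to 102 to 118 CPM in day 30 abnormal, 24.2 to 31.8 CPM in day 30 normal and 11.3 to 23.8 CPM in day 30 NF libraries, and at day 35 to 10.8 and 103 CPM in abnormal, 36.1 to 52.1 CPM in normal and 25.2 to 26.5 CPM in NF libraries. The 5 liver markers summed to 1544 CPM in day 30 abnormal replicate 2, with AHSG at 975 CPM and AFP at 455 CPM, and to 38.7 CPM in replicate 1. FOSL1, JUNB, FOS and JUN stood at 13.3, 134, 98.8 and 398 CPM in the former and at 15.7, 129, 111 and 417 CPM in the latter.

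Leukocyte and endothelial markers changed sides between the days. Leukocyte markers summed to 68.7 to 78.3 CPM in day 30 abnormal, 21.0 to 28.9 CPM in day 30 normal and 42.1 to 44.1 CPM in day 30 NF libraries. At day 35 they summed to 23.7 to 26.0 CPM in abnormal, 79.8 to 123 CPM in normal and 35.3 to 48.2 CPM in NF libraries. In abnormal against normal 4 of the 6 were higher at day 30 and 4 lower at day 35. Endothelial markers summed to 763 to 1068 CPM in abnormal, 442 to 477 CPM in normal and 127 to 552 CPM in NF libraries at day 30, and to 24.3 to 136 CPM, 518 to 599 CPM and 540 to 590 CPM at day 35. Of these 5 genes 1 was higher in abnormal than in normal at day 30 and 4 were lower at day 35. Every body tissue group held RNA of muscle, nerve, vessel, blood and mesenchyme, though not every library did so alike. The erythroid markers summed to only 5.40 CPM in 1 day 35 abnormal library and to 2243 CPM in the other.

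In day 6 embryos the subunits were scarce, summing to 1.02 to 27.0 TPM, against 261 TPM or more in every fetus library. Embryo libraries were made from cDNA and fetus libraries from total RNA, so stage and library protocol cannot be told apart. The embryos carried blastocyst markers, with epithelial keratins and cadherins summing to 35398 CPM or more and POU5F1 detected in all 8 libraries, though HAND1 was at 0 in all and NANOG and SOX2 at or near 0. A level of 3 counts corresponds to 0.181 to 0.522 CPM there, and values below it were not detectable above 0.

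By TPM, FOS held the largest share of the 4 subunits in 5 of the 8 embryo libraries. It was at 8.87 and 9.32 CPM in IVF, 0 and 0.697 CPM in WT, 1.24 and 8.31 CPM in XIST-KO and 1.81 and 5.19 CPM in WT+Kdm4A. WT libraries were thus below all others. WT minus IVF gave a log2 fold change of -4.67 ± 2.14 for FOS (adjusted p = 0.180), XIST-KO minus WT 3.75 ± 2.06 (adjusted p = 0.335) and WT+Kdm4A minus WT 3.30 ± 2.03 (adjusted p = 0.288), none past the threshold. FOSL1 was at 0.612 and 17.9 CPM in IVF, 1.77 and 0 CPM in WT, 0 and 3.63 CPM in XIST-KO and 0 and 0.319 CPM in WT+Kdm4A. For FOSL1 the groups overlapped in 4 of the 5 comparisons, WT+Kdm4A against IVF being the other.

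JUNB had WT at the other end, with 1.93 and 2.09 CPM in WT and 0.153 and 0.245 CPM in IVF, 0.495 and 0.250 CPM in XIST-KO and 0 and 0.239 CPM in WT+Kdm4A. WT libraries were above all others, by 3.25 ± 2.17 against IVF (adjusted p = 0.337), while XIST-KO minus WT was -2.40 ± 2.05 (adjusted p = 0.551) and WT+Kdm4A minus WT -3.98 ± 2.21 (adjusted p = 0.241). JUN, which held the largest TPM share of the measured subunits in normal fetuses, was at 0 in both IVF and both XIST-KO libraries. It was at 0.322 and 0.556 CPM in WT and at 0 and 0.160 CPM in WT+Kdm4A, and it was too low to be tested.

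**Figure D5:**
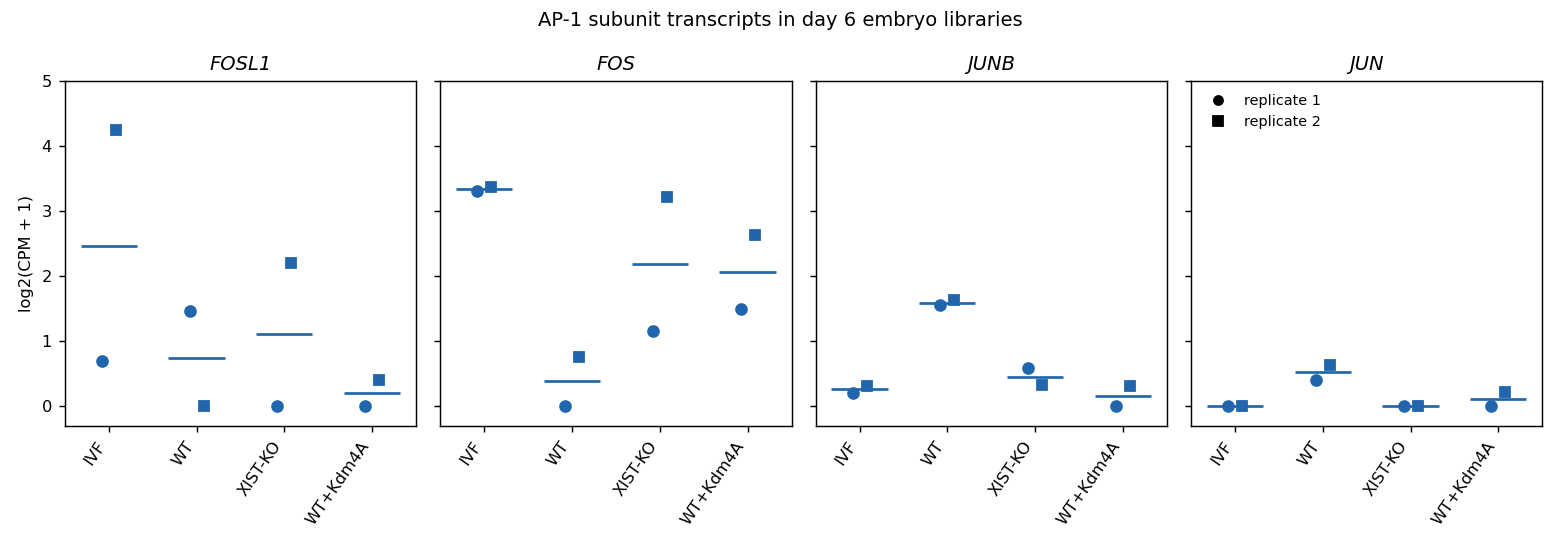
Levels of the 4 subunits in the 8 embryo libraries, as log2(CPM + 1) on the vertical axis, by group on the horizontal axis; points are libraries, shapes give the replicate and lines are group means. WT was lowest for FOS and highest for JUNB, at levels of a few CPM.

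Of the 3 members tested in embryos, 0 passed in any of the 5 comparisons by edgeR, among 6958 genes. The share of all genes that passed was 5.71% in WT against IVF, 1.11% in XIST-KO against WT, 7.43% in WT+Kdm4A against WT, 0.0431% in XIST-KO against IVF and 0.0431% in WT+Kdm4A against IVF. At an unadjusted p under 0.05 there was 1 member, FOS in WT against IVF, beside 1930 of 6958 genes in that comparison. DESeq2 called 1 member in WT against IVF and 0 in the other 4. The biological coefficient of variation over all genes was 0.893 in embryos and 0.290 in fetuses, and its part in the missing calls was not tested.

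The lists around AP-1 held few calls in embryos. Of 8 tested dimer partners 1 rose in WT+Kdm4A against WT, ATF3, from 27.9 ± 1.90 to 172 ± 33.4 CPM (n = 2 each), a log2 fold change of 2.62 ± 0.69 (edgeR adjusted p = 0.0439). Of 14 kinases and phosphatases, 1 rose and 1 fell in WT against IVF. MAP2K7, which activates JNK, stood at 50.5 ± 12.5 CPM in WT and 0.383 ± 0.326 CPM in IVF, and MAP2K4, which also activates JNK, at 15.7 ± 8.71 CPM in WT and 196 ± 50.1 CPM in IVF (n = 2 each). In WT+Kdm4A MAP2K7 had 1 count over both libraries, and the WT level was 1463 times that level (95% exact interval 262 to 57869). Of 10 tested immediate early genes 0 passed in any of the 5 embryo comparisons by edgeR. Of 8 tested target genes 1 rose and 1 fell in WT against IVF: HMOX1, heme oxygenase 1, stood at 3461 ± 2231 CPM in WT and 77.2 ± 9.86 CPM in IVF, and IL6, with 1 count in WT, was 313 times higher in IVF (55.9 to 12406). COPS5, a cofactor of JUN, rose in WT+Kdm4A against WT by 4.04 ± 0.85. The alternatives were not applied to these embryo lists.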

How the data were processed

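Per the submitters' processing notes, RSEM 1.2.4 and the build Sscrofa11.1 (susScr11) were used, and the authors deposited 1 table per library with 65927 transcript records. Each table gives an expected count per record, per the file headers, and TPM, the length-scaled abundance, also per the file headers. Which aligner and which read filters were used is not stated in these sources. Per the labels' protocols, total RNA went into the fetus libraries and cDNA into those of embryos.

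Records were matched to genes of the RefSeq table of assembly Sscrofa11.1 by accession without version (25305 records, 38.4%) and summed per gene, which held 66.0% to 69.0% of counts in fetuses and 79.5% to 85.0% in embryos. FOS and JUN also matched with their version, FOSL1 and JUNB did not. The rounded counts entered the quasi-likelihood F-test of edgeR 4.0.16 (R 4.3.3) after filterByExpr and TMM scaling, all groups of a stage in 1 fit, with Benjamini-Hochberg adjustment over all genes tested and a threshold of 0.05. CPM are scaled by effective library size, means carry an SD and fold changes an SE. The SE of an edgeR log2 fold change was taken as its absolute value over the square root of the F statistic. It thus depends on the prior count too where a group has few counts. Ratios to groups with 1 to 3 counts carry 95% exact intervals, and the floor is 3 counts.

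The members, the 5 gene lists and the markers were chosen with earlier results of these data known. Named list genes were up to 3 per list and comparison with the largest change. They came from those past the threshold whose average log2 CPM was 1 or more and whose groups did not overlap. For some of them, but not all, the level in a remaining group is given as well. KLF2 and VIM were named after their values were seen, as the 1 gene of their list that passed in the other direction. One target gene is counted with its list but not reported here. Genes most like a member were taken by Pearson r. Alternatives were RLE size factors, no filter, a filter at 1 CPM, DESeq2 1.42.0, limma 3.58.1 on log2(TPM + 1), only the compared groups, the replicate number as a block, records matched with version, and each library left out. Code was tested on simulated data. The software was matplotlib 3.10.9, scipy 1.17.1, pandas 2.3.3 and numpy 2.4.6 under Python 3.11.15.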

Additional observations from a re-analysis of the deposited data

Results flagged for a closer look

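Among the 4 abnormal libraries of both days, day 35 replicate 2 stood apart for FOSL1, at 156 CPM where the nearest of the others was at 15.7 CPM. The gap was 0.946 of the whole range, above Dixon's 95% critical value of 0.829 for 4 samples. The same library stood apart for JUNB in the other direction, at 62.0 CPM against 129 CPM in the nearest, a gap of 0.931 of the range. In all, 8 sets of 4 libraries were checked, and chance flags about 1 in 20. It is the shallowest fetus library, at 0.589 M expected counts, and EIF1AY was at 0 CPM in it; the part of either in these values was not tested.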

How the results depend on the processing

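JUNB kept its direction and its call in normal against NF at both days under each of the 21 alternatives in which it had a record, with log2 fold changes from -4.85 to -3.20 at day 30. Of the values of members in fetuses recomputed without the day 35 abnormal libraries or day 30 NF replicate 1, several turned. Without day 35 abnormal replicate 1, FOS turned in day 35 abnormal against normal (-3.58), against NF (-3.60), over both days (from 1.34 to -0.95) and between days in abnormal fetuses (from 0.28 to -4.35), and JUN in day 35 abnormal against NF (from 0.17 to -0.71) and over both days (from 0.15 to -0.27). Without replicate 2, JUN in day 35 abnormal against normal (0.28) and FOSL1 between days in abnormal fetuses (-0.93) turned. FOS in day 30 abnormal against NF went from -0.42 to 0.54 without NF replicate 1, and 2 values near 0, FOS in day 35 normal against NF and JUN between days in normal fetuses, turned without any of the 3 libraries. These results, whose groups overlapped and which had not passed, were recomputed only after the data were seen. Matching records with their version leaves FOSL1 and JUNB without a record, and the members called then fell to 0 in abnormal against normal at day 30, at day 35 and over both days, in day 35 abnormal against NF and in normal against NF at both days, and to 1 in day 30 abnormal against NF. That last count was also 1 with RLE size factors, with limma on log2(TPM + 1) and with the replicate block. With only the compared groups the counts were 4 in abnormal against normal at day 30 and 1 at day 35, 0 in day 35 abnormal against NF, and 2 (FOS and JUNB) between days in normal fetuses. DESeq2 gave 1 in WT against IVF. With only the compared groups, 4 immediate early and 1 target gene were higher in abnormal than in normal fetuses at day 35, and 5 and 6 with limma.

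Leaving out each library gave, FOSL1 counted, 1 to 4 members in abnormal against normal at day 30, 2 to 3 at day 35 and 2 to 4 over both days, 0 to 3 and 0 to 4 in abnormal against NF at day 30 and day 35, 0 to 3 between days in abnormal fetuses, 2 to 4 in normal against NF at day 30, 2 at day 35 and 0 elsewhere. Without day 35 abnormal replicate 1 or 2, 4 members passed in abnormal against normal and in normal against NF at day 30.

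The replicate numbers did not pair the libraries: the correlation of deviations of same-numbered libraries ran from -0.072 to 0.148 in fetuses and from -0.310 to 0.0929 in embryos. With the replicate number as a block, JUNB passed in normal against NF at each day, as without it. FOSL1 did so too, but nothing is read from this, since the normal libraries entered its choice. With this block the genes called at day 30 went from 1525 to 733 in abnormal against normal and from 2906 to 2097 in normal against NF. Crossing the numbers in embryos gave 286 genes in place of 141 in XIST-KO against WT and 5 in place of 13 in WT+Kdm4A against IVF, with 0 members in each.

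Over all alternatives the genes called ran from 375 to 3807 in abnormal against normal at day 30 (1525 in the fit reported) and from 339 to 3608 at day 35 (2300), from 731 to 4439 in normal against NF at day 30 (2906) and from 1132 to 5630 at day 35 (4190), and from 0 to 1492 in WT against IVF (397). The cause of these changes was not tested beyond the lost records. Counts were few for FOSL1 in normal fetuses, for FOS in the shallowest library and for the members in many embryo libraries. The part of depth in this was not tested.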
